A study of Mus musculus with 47 samples.

Results

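The genes described here are the 8 members of the mouse Hoxb cluster from Hoxb2 to Hoxb9, measured in P19 cells by SLAM-seq, a method that reads newly made RNA from T-to-C conversions left by the nucleoside 4-thiouridine (4sU). The members were chosen by the RefSeq names of their 3′ UTRs, and the set was proposed after their induction at day 6 and the loss of label from Hoxb3 had been seen in these data, so both are given as descriptions without a test. They are 8 of 18804 genes, with 9 of the 39419 deposited intervals, and every one of the 8 had reads in the D6 libraries. The 2 Hoxb3 transcripts share 1 identical 3′ UTR and were counted once.

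P19 is an established male mouse embryonal carcinoma line. The undifferentiated cells (D0) were labeled with 20 µM 4sU, and cells kept for 6 days in NDiff 227 medium with retinoic acid (D6) with 500 µM 4sU, so the state and the dose cannot be told apart where labeled cells are compared. In the anabolic assay 4sU was present from T0, when no 4sU had been given, to T1, T3 and T9. In the catabolic assay cells were labeled for 15 h (T0) and then chased in medium with UTP and no 4sU to T1, T3 and T9. The methods state 13 h in place of 15 h where the normalization is described, and 15 h is used throughout. The methods give these points as 0, 3, 6 and 9 h, the sample labels as 0, 1, 3 and 9, and the hours of the methods are used unless stated. There were 24 D0 and 23 D6 libraries, 3 in each group except 2 at T3 of the D6 catabolic assay. Each was made with a kit that reads the 3′ end of polyadenylated RNA. Reads on 3′ UTRs numbered from 3447888 to 11677046 at D0 and from 1489528 to 7930149 at D6.

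Hox genes encode homeodomain transcription factors that give cells their identity along the head-to-tail axis. Within a cluster they lie in the order in which they are used: genes at the 3′ end, such as Hoxb2, act in the hindbrain and are switched on first by retinoic acid, while genes toward the 5′ end, such as Hoxb9, act in the spinal cord and respond later. The cluster also holds microRNA genes, among them Mir10a and Mir196a-1, whose products are known to target Hox mRNAs.

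All 8 genes lie on the plus strand of chromosome 11 (mm10). From the 3′ end of the cluster, the 3′ UTR of Hoxb2 spans chr11:96353630-96354016, that of Hoxb3 chr11:96346400-96347930, that of Hoxb4 chr11:96320329-96321638 and that of Hoxb5 chr11:96305138-96306121. Toward the 5′ end follow Hoxb6 at chr11:96300929-96301569, Hoxb7 at chr11:96289631-96290163, Hoxb8 at chr11:96284471-96285325 and Hoxb9 at chr11:96274860-96276595. These intervals are where the reads were counted.

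The mature 5p products of the 2 microRNA genes of the cluster are shown because their seeds were searched for in these 3′ UTRs. Both come from RefSeq on GRCm38.p6, plus strand, at chr11:96265187-96265208 and chr11:96317186-96317208, and the gene Mir196a-2 on another chromosome gives the same miR-196a-5p. Capitals mark the seed, bases 2 to 8:
mmu-miR-196a-5p: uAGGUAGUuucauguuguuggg
mmu-miR-10a-5p: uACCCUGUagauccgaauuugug

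The letters that pair with these seeds, ACTACCT and ACAGGGT, were searched on the sense strand of the 3′ UTRs, and 3 of the 8 members held 1 match each. Hoxb6 and Hoxb7 held ACTACCT, at chr11:96301387-96301393 and chr11:96289798-96289804, and Hoxb3 held ACAGGGT at chr11:96347302-96347308. Among 3′ UTRs within 10% of the same length, ACTACCT was found in 3.26% for Hoxb6 and 2.03% for Hoxb7, and ACAGGGT in 14.2% for Hoxb3. Over all 17041 3′ UTRs with sequence the shares were 4.96% and 10.2%. The sites are printed from the GENCODE transcripts of GRCm38 with flanking bases, plus strand, and the seed match in capitals:
Hoxb6: aaggagcacatACTACCTagaaggaagaa
Hoxb7: taaaaaaatatACTACCTatgggaaagtg
Hoxb3: ttaacgtgaaaACAGGGTatatttgaaca

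Hoxb8 held no exact seed match but a stretch at chr11:96284888-96284909 that pairs with miR-196a-5p along its whole length. Of the 22 bases, 21 form Watson-Crick pairs and 1, at base 5 of the microRNA, a G:U pair, shown here in lower case:
Hoxb8: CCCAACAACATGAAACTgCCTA

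No other 3′ UTR within 10% of the Hoxb8 length paired at all 22 bases, and of 17041 3′ UTRs with sequence 2 did, the other being Rps6ka2 with 12 Watson-Crick and 10 G:U pairs, a gene named after its values were seen. Hoxb8 mRNA is a known target that miR-196 directs for cleavage. The libraries measured no microRNA, and a match is a description of the sequence.

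The 8 genes together took a median of 0.738% of all 3′ UTR reads at D6, with a lowest value of 0.494% and a highest of 0.917% over 23 libraries. At D0 the median was 0.00142%, and the highest of 24 libraries was 0.00212%. For each of the 8 genes the lowest D6 library lay above the highest D0 library, as the plot of reads in every library shows. The set was selected on this contrast.

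**Figure D1:**
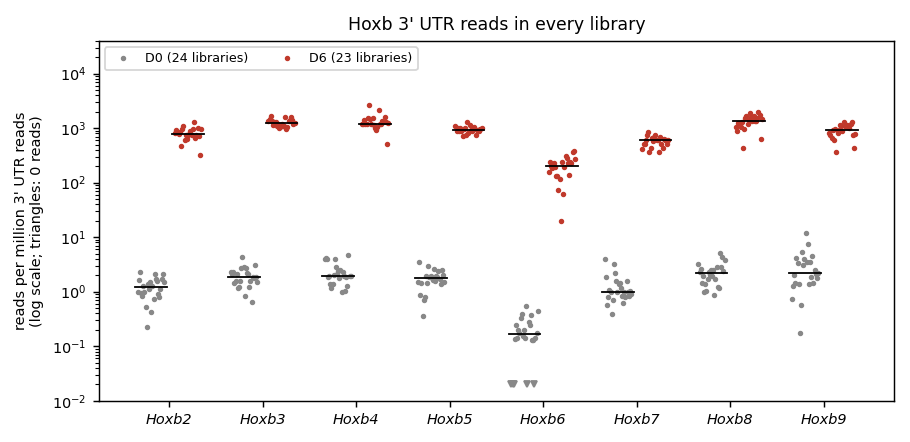
CPM (log scale) of each Hoxb gene, 1 point per library, with the 24 D0 libraries in grey, the 23 D6 libraries in red, a black line at each median and triangles for libraries with 0 reads. Every D6 point lies above every D0 point of the same gene, and Hoxb6 is lowest in both states.

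In the cells without 4sU, Hoxb8 was the most abundant of the 8 at D6, with 1405, 1904 and 1580 CPM (reads per 1000000 reads on 3′ UTRs). At D0 it had 1.95, 2.55 and 0.882 CPM. Hoxb3 followed with 1113 ± 57.9 CPM, Hoxb9 with 1096 ± 206, Hoxb4 with 986 ± 66.3 and Hoxb5 with 962 ± 165 (SD, n = 3 each). These neighbours, Hoxb3 to Hoxb5, differed from each other by less than the larger of their SDs except Hoxb3 from Hoxb4. Hoxb2, at 797 ± 76.0 CPM, and Hoxb7, at 659 ± 81.9 CPM, were lower. Hoxb6 was the lowest and, relative to its mean, the most variable, with 236, 61.6 and 191 CPM.

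Per kilobase of 3′ UTR the order was another, since the intervals run from 387 to 1736 bases. Hoxb2, with the shortest, led with 2058 ± 196 CPM per kb and Hoxb8 followed with 1906 ± 296, a gap smaller than either spread (SD, n = 3). Hoxb7 stood at 1237 ± 154 and Hoxb5 at 977 ± 168. Hoxb4, Hoxb3 and Hoxb9 lay between 632 and 753 CPM per kb, and Hoxb6 at 254 ± 141. The kit reads transcript ends, so that length need not scale with reads, and the order between genes rests on which scale is used.

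By edgeR's quasi-likelihood fit, the log2 difference between D6 and D0 without 4sU ran from 7.24 ± 0.449 (SE) for Hoxb9 to 9.98 ± 0.468 for Hoxb2, with a median of 9.09 over the 8 genes and -0.05 over all 3′ UTRs tested. Between the states after 15 h of 4sU, at unequal doses, it was 9.10 ± 0.393 for Hoxb9, 8.98 ± 0.36 for Hoxb2, 8.58 ± 0.314 for Hoxb8 and, lowest, 7.75 ± 0.521 for Hoxb7, so that the order among the genes rests on the libraries used. Hoxb6 had 0 reads in all 3 of those D0 libraries, so that its fitted value there is not given. Of 11055 3′ UTRs tested, 7.08% were called higher at D6 and 5.19% lower at an adjusted p under 0.05. These shares are the background for the gene lists that follow. In those lists a gene near absent in 1 state passes the filter on low counts only through the other. The direction of its call is then fixed, as for Hoxa7, Gbx2, Utf1, Tdgf1 and Pou5f1. The 8 genes were selected on this contrast, so that a call has a fixed outcome for them and none is read. In bulk samples, fewer cells of a type and less RNA per cell cannot be told apart.

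The 2 remaining genes of the cluster did not pass the filter on low counts. Hoxb1, at the 3′ end, averaged 2.82 CPM at D6 without 4sU with a spread of 4.88 (SD, n = 3) and Hoxb13, at the far 5′ end, had 0 reads there. Of 18 genes that flank the cluster on either side, 9 passed the filter, none was higher at D6 and 1 was lower. That gene was Igf2bp1, an RNA-binding protein of early development, at 2403 CPM at D0 and 542 CPM at D6 (log2 difference -2.11 ± 0.208, adjusted p = 0.000102). The median over the 9 was -0.36.

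Most of the Hox genes of the other clusters that were tested were also higher at D6. Of 18 paralogs, 14 were tested, 12 were higher at D6 and none lower, with a median log2 difference of 8.87, or 8.70 with Hoxa7 set at its bound. Hoxc4 rose by 9.95 ± 0.418 on the log2 scale (adjusted p = 2.31e-07). Hoxa7, with 0 reads at D0, was at least 220-fold higher against a floor of 3 reads over the D0 group.

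Partners and regulators of Hox genes rose in part. Of 9 genes for PBX and MEIS cofactors, which bind DNA together with HOX proteins, 4 were higher and none lower (median 1.29). Among them Meis2 differed by 4.16 ± 0.289 and Meis1 by 2.93 ± 0.44. Of 18 genes of retinoic acid handling and response 12 were tested and 8 were higher, among them the retinoic acid binding protein Crabp1 (7.24 ± 0.556), with a median of 3.295. Of 7 upstream regulators 2 passed the filter and both were higher. Gbx2, a homeobox gene of the early neural plate, was at least 185-fold higher against the same floor.

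Of 19 genes of the Polycomb and Trithorax complexes, which keep Hox clusters silent or active, 18 were tested, 1 was higher (Bmi1, 4.16 ± 1.17, adjusted p = 0.0427) and 1 lower (Phc1, -1.05 ± 0.28, adjusted p = 0.0335), with a median of 0.13. Of 14 neuron markers 13 were higher, led by Dcx (7.85 ± 0.632) and Mapt (7.32 ± 0.587), and their summed level was 1119 to 1363 CPM at D0 and 13374 to 14592 CPM at D6. Of 11 pluripotency markers 4 were tested and 3 were lower, led by Utf1 (-8.03 ± 0.975) and Tdgf1 (-7.74 ± 0.575). These 3 passed the filter through their D0 reads. Of 9 glia markers 3 were tested and none was called, while 6 were under the filter. Of 13 mesoderm and endoderm markers 4 were tested and 1, Acta2, was lower (-4.85 ± 0.936). The summed level of the glia list was 143 to 281 CPM at D0 and 157 to 193 CPM at D6, that of the pluripotency list 416 to 504 and 2.78 to 18.8 CPM, and that of the mesoderm and endoderm list 92.7 to 148 and 9.42 to 18.3 CPM. The part of this change of markers in the Hoxb levels was not tested.

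Over all 47 libraries the genes with the level most like the mean of the 8 (Pearson r of log2 CPM with 0.5 added, 9661 genes compared) were Hoxa5 (r = 0.997), Hoxc4 (0.994), Elavl3 (0.994), Dcx (0.992) and Hoxa3 (0.992). These values rest on the contrast between the states. Within the 23 D6 libraries, which differ in 4sU, chase and depth, the most alike were Hnrnpu (r = 0.865), Ift22 (0.863), Arl4a (0.846), Gnb2 (0.842) and Stradb (0.827). Between members within D6 the highest r was 0.861, for the neighbours Hoxb8 and Hoxb9, and the next was 0.492, for Hoxb7 and Hoxb8.

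Reads with and without 4sU were compared within D6, which the choice of members did not use. The cells labeled for 15 h belong to the catabolic assay and the unlabeled cells to the anabolic assay, so that label and assay cannot be told apart here. After 15 h in 4sU none of the 8 passed the adjusted threshold in edgeR. The values of Hoxb7, Hoxb8 and Hoxb9 were lower than without 4sU and those of Hoxb3 and Hoxb4 higher. Hoxb8 went from 1405, 1904 and 1580 CPM without 4sU to 1040, 898 and 1226 CPM with it (log2 difference -0.70 ± 0.17, adjusted p = 0.283). Hoxb9 went from 902, 1313 and 1074 CPM to 829, 740 and 664 CPM (-0.63 ± 0.186, adjusted p = 0.464). Hoxb7 went from 754, 609 and 616 CPM to 419, 510 and 517 CPM (-0.52 ± 0.187, adjusted p = 0.652). In these 3 genes every labeled library lay below every unlabeled one.

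Hoxb3 had 1180, 1074 and 1086 CPM without 4sU and 1361, 1462 and 1647 CPM with it (0.35 ± 0.146, adjusted p = 0.792), and Hoxb4 differed by 0.30 ± 0.153 (adjusted p = 0.879). In both, every labeled library lay above every unlabeled one. The groups did not overlap for 5 of the 8 genes, against 13.9% of the 10730 3′ UTRs tested. Hoxb2, Hoxb5 and Hoxb6 differed by 0.03 ± 0.167, -0.04 ± 0.178 and 0.23 ± 0.372.

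With edgeR's test 0.00932% of all 3′ UTRs were called in either direction, 1 of 10730, while 612 had an unadjusted p under 0.05. DESeq2 called 176, Hoxb8 (-0.69, adjusted p = 0.00556) and Hoxb9 (-0.62, adjusted p = 0.0239) among them, so the call for these 2 genes rests on the tool. Leaving out each library in turn, edgeR called none of the 8, with an adjusted p for Hoxb8 from 0.366 to 0.802. During the chase Hoxb8 had 1228, 1042 and 1285 CPM at T1 and 428 and 955 CPM at T3, all below the unlabeled libraries, and 1545, 1639 and 1188 CPM at T9, a range that overlaps theirs.

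After 9 h in 4sU none of the 8 genes was called by edgeR, and 0% of 10286 3′ UTRs were, while 360 had an unadjusted p under 0.05 and DESeq2 called 2. Hoxb9 differed by -0.78 ± 0.281 (unadjusted p = 0.0157 by the fit across all genes in edgeR) and Hoxb6 by 1.06 ± 0.434 (unadjusted p = 0.0296 in the same edgeR fit), both with an adjusted p of 1. Hoxb8 differed by -0.38 ± 0.316. One of the 3 libraries at T9, replicate 53, had 1504166 reads, fewer than all others but 1, and in it Hoxb8 stood at 641 CPM against 1746 and 1440 in the others.

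Label entered the 8 genes at D6 to about the level of the transcriptome. The conversion rate, the share of covered T positions read as C, was 0.0842% ± 0.0114 (SD, n = 3) over the 8 genes without 4sU and 4.58% ± 0.416 after 15 h, where all 3′ UTRs together had 0.166% and 4.63%. After 15 h the single genes ran from 4.11% ± 0.525 for Hoxb8 to 5.29% ± 0.484 for Hoxb3. The plot of label over time gives each gene's rate as a share of its own mean after 15 h.

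**Figure D2:**
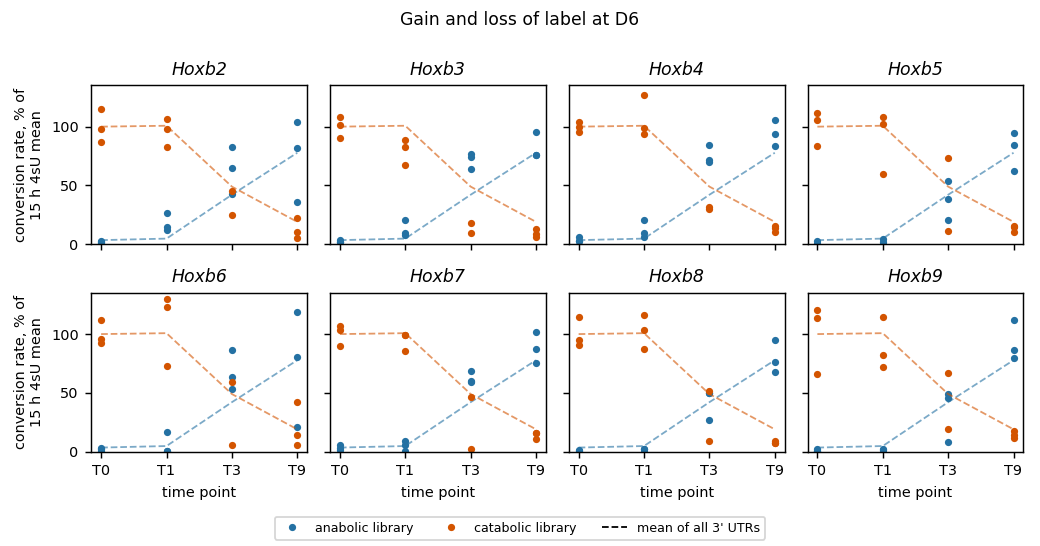
Conversion rate at D6 as a percentage of the gene's mean after 15 h of 4sU, by time point, 1 point per library (blue anabolic, orange catabolic), with dashed lines for the mean of all 3′ UTRs. All catabolic points of Hoxb3, Hoxb4 and Hoxb7 lie below the dashed line at T3 and T9. All of Hoxb2 do so at T3, and all of Hoxb5, Hoxb8 and Hoxb9 at T9. The anabolic points of Hoxb2, Hoxb3 and Hoxb4 lie above their line at T1.

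The highest mean rates early in labeling were those of Hoxb2, Hoxb3 and Hoxb4, at the 3′ end of the cluster. The ends of the cluster were not tested against each other. At T1 of the anabolic assay, Hoxb2 was converted at 1.24%, 0.689% and 0.56% of covered T positions in the 3 libraries, Hoxb3 at 1.09%, 0.523% and 0.428%, and Hoxb4 at 0.919%, 0.297% and 0.426%. In each of these libraries all 3 genes lay above the rate of all 3′ UTRs, which averaged 0.226% ± 0.0139 (SD, n = 3). Hoxb5 had 0.0298%, 0.175% and 0.0996%, Hoxb8 0.00807%, 0.0806% and 0.0855%, and Hoxb9 0.00262%, 0.0922% and 0.0642%, all below it. Hoxb6 and Hoxb7 fell on both sides. Hoxb6 had 0.734% in 1 library, above Hoxb2, Hoxb3 and Hoxb4 there, and 0.0353% and 0.0106% in the others. Without 4sU the 3 libraries gave 0.0716%, 0.131% and 0.089% for Hoxb2, 0.0869%, 0.19% and 0.124% for Hoxb3, and 0.138%, 0.295% and 0.132% for Hoxb4. For these 3 genes every T1 library lay above every unlabeled one, for Hoxb4 by a narrow margin. The rate of all 3′ UTRs together did so too, at 0.213% to 0.241% against 0.136% to 0.19%. How many single 3′ UTRs do so was not counted, so nothing particular to these 3 genes is read from it. For Hoxb8 the unlabeled libraries had 0.0633%, 0.00408% and 0.0224%, a range that overlaps that of T1.

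As a share of the 15 h rate, this was 17.7% ± 7.70 for Hoxb2, 12.8% ± 6.72 for Hoxb3 and 12.2% ± 7.34 for Hoxb4 (SD, n = 3), and 2.42% ± 1.73 for Hoxb5, 1.41% ± 1.06 for Hoxb8 and 1.24% ± 1.07 for Hoxb9. Hoxb6 and Hoxb7, at 5.83% ± 9.21 and 5.18% ± 4.06, lay above Hoxb5 and so out of the cluster's order. All 3′ UTRs stood at 4.88% ± 0.3. Over the 8 genes the rank of this share fell with the distance from the 3′ end of the cluster (Spearman's rho = -0.93). At T3 rho was -0.67, at T9 0.19 and without 4sU -0.38. The 8 genes share libraries and lie side by side, so these are descriptions, and the pattern was noticed in the data before the values of T1 and T3 were fitted.

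**Figure D3:**
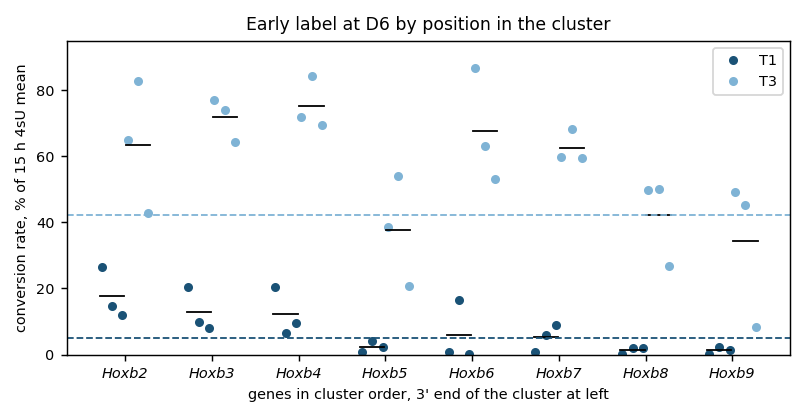
Conversion rate at D6 at T1 (dark) and T3 (light) of the anabolic assay, as a percentage of the gene's mean after 15 h of 4sU, with genes in cluster order, 1 point per library, black lines at means and dashed lines at the means of all 3′ UTRs. At T1 Hoxb2, Hoxb3 and Hoxb4 lie above the dashed line and Hoxb5, Hoxb8 and Hoxb9 below it, and at T3 Hoxb6 and Hoxb7 also lie above theirs.

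Relative to the change of the whole library, the log2 ratio of the T1 rate to the 15 h rate was 1.86 ± 0.354 for Hoxb2, 1.40 ± 0.362 for Hoxb3 and 1.33 ± 0.443 for Hoxb4 (SE). For Hoxb6 and Hoxb7 it was 0.16 ± 1.32 and 0.10 ± 0.884. It was -1.03 ± 0.666 for Hoxb5, -1.78 ± 0.798 for Hoxb8 and -1.96 ± 1.06 for Hoxb9, where the median over all 3′ UTRs was -1.90. That median was -0.75 with DESeq2 and -3.56 without replicate 41, so that no place of these 3 genes relative to it is read. In edgeR the adjusted p was 0.0768 for Hoxb2 and Hoxb3 and 0.0904 for Hoxb4, so none of the 8 was called, and 0.0798% of 8769 3′ UTRs were. DESeq2 called 1975 3′ UTRs, and of the 8 genes Hoxb2 (adjusted p = 0.0036). Without replicate 41, all 3 passed, at adjusted p from 0.0393 to 0.0445, and 1935 3′ UTRs were called. Without replicate 40 only Hoxb2 of the 8 did (adjusted p = 0.0236), and 72 were called. Over the fits that left out 1 library, the adjusted p ran from 0.0236 to 0.209 for Hoxb2, from 0.0445 to 0.209 for Hoxb3 and from 0.04 to 0.218 for Hoxb4.

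At T3 the ratio was 0.85 ± 0.147 for Hoxb4, 0.79 ± 0.109 for Hoxb3, 0.68 ± 0.357 for Hoxb6, 0.58 ± 0.266 for Hoxb7 and 0.57 ± 0.175 for Hoxb2. It was -0.02 ± 0.178 for Hoxb8, -0.20 ± 0.251 for Hoxb5 and -0.37 ± 0.513 for Hoxb9. None was called in edgeR, where the adjusted p was 0.118 for Hoxb3 and 0.218 for Hoxb4, and 0.0553% of 9038 3′ UTRs were. Without replicate 45, which had the lowest library-wide rate of its group at 1.58%, Hoxb3 (adjusted p = 0.0269) and Hoxb4 (adjusted p = 0.0416) passed and 85 3′ UTRs were called.

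At T9 the ratios of Hoxb2, Hoxb3 and Hoxb4 lay among those of the other genes. The ratio to the 15 h rate ran from -0.18 ± 0.472 for Hoxb6 to 0.32 ± 0.299 for Hoxb9, with a median of 0.07 over the 8 genes against -0.12 over all. In edgeR 0% of 8641 3′ UTRs were called, 294 had an unadjusted p under 0.05, and DESeq2 called 28. None of the 8 genes had an unadjusted p under 0.05 in the edgeR fit.

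The measures of label loss differed in where they placed the 8 genes relative to the transcriptome. At T3 the 2 libraries disagreed. The mean over both was below the 49.0% of the library in all 8 genes, but the higher library had 73.0% of the 15 h rate for Hoxb5, 67.4% for Hoxb9, 59.1% for Hoxb6 and 51.7% for Hoxb8. After 9 h they kept between 8.08% ± 0.824 (Hoxb8) and 20.8% ± 19.3 (Hoxb6) of the 15 h rate (SD, n = 3), while all 3′ UTRs kept 19.1% ± 1.35. The Hoxb6 mean holds 1 library of 83 reads at 42.6%, and its lowest library kept 5.80%. Hoxb8 had 0.318%, 0.307% and 0.37% converted positions at T9, the tightest group of the 8. Hoxb3, whose faster loss was among the reasons the set was chosen, kept 9.23% ± 3.49 at T9 and 13.9% ± 5.51 at T3 (n = 2), where all 3′ UTRs kept 49.0%. Every library of Hoxb3, Hoxb4 and Hoxb7 lay below the mean share of all 3′ UTRs at both points. At T9 this also held for Hoxb5, Hoxb8 and Hoxb9.

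The slope of label against time relative to the library was -0.15 ± 0.047 log2 per hour for Hoxb8 and -0.14 ± 0.038 for Hoxb3 (SE), and between -0.08 and 0.00 for the other 6. The median over the 8 was -0.07 and over all 3′ UTRs -0.08. For Hoxb3, which was chosen in part on this slope, no verdict is given under any setting. None of the other 7 genes was called in edgeR (Hoxb8 adjusted p = 0.167), and 0.732% of 8740 3′ UTRs were. With 0 and 9 h alone Hoxb8 passed in edgeR (-0.14 ± 0.024, adjusted p = 0.0176), where 1.21% of 8743 3′ UTRs were called. Without replicate 14, which leaves 1 library at T3, its slope was -0.13 ± 0.032. The T3 group has 2 libraries, which gave 51.7% and 9.5% of the 15 h rate for Hoxb8, so that 1 library weighs heavily. DESeq2 did not call Hoxb8. edgeR called 7 of the 8 genes and 21.1% of all 3′ UTRs when the library-wide rate was left out of the offset. That slope is not relative to the library, and for Hoxb3 no verdict is drawn from it.

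Decay half-lives were fitted for the 8 genes, and 7 passed the minimum R squared of 0.6. They ran from 221 min ± 40.6 for Hoxb3 to 322 min ± 89.7 for Hoxb4 (SE of the fit), with Hoxb7 at 284 ± 68.0, Hoxb8 at 296 ± 85.3, Hoxb2 at 304 ± 70.2, Hoxb5 at 309 ± 82.2 and Hoxb9 at 312 ± 83.1. Hoxb6 gave 359 ± 124 with an R squared of 0.54. Without replicate 8 of the 15 h libraries 4 fits passed, those of Hoxb2, Hoxb3, Hoxb4 and Hoxb7. Apart from Hoxb3, these genes differed by less than 1 SE. The median over the 7 was 304 min, and 221 min over the 1568 of 8740 3′ UTRs whose fit passed. These medians rest on unlike shares of fits kept, 7 of 8 genes and 17.9% of all. With 0 and 9 h only they were 188 min over the 8 genes and 165 min over the 58.8% of all fits that passed.

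Synthesis half-lives, the time to reach the middle of the 15 h rate, passed for the same 7 genes. They were 239 min ± 45.2 for Hoxb4, 272 ± 42.7 for Hoxb3, 298 ± 56.1 for Hoxb7 and 309 ± 60.8 for Hoxb2. Hoxb9 had 380 ± 100.0 min, Hoxb8 403 ± 79.2 and Hoxb5 413 ± 87.4. The median over the 7 was 309 min, and over all 3′ UTRs 379 min for 928 fits that passed. With the hours of the labels these medians were 174 and 246 min, and with 0 and 9 h only 221 and 213 min, where the order turned. With the hours of the labels every decay half-life was shorter, from 104 min for Hoxb3 to 216 min for Hoxb6, all 8 passed, and the median over all 3′ UTRs was 137 min. The synthesis half-lives of the 8 genes then ran from 122 min for Hoxb4 to 263 min for Hoxb5. With 0 and 9 h only, that of Hoxb9 was 143 min ± 46.0, that of Hoxb8 235 ± 36.7 and that of Hoxb5 227 ± 43.5, and the decay half-life was 149 min ± 34.2 for Hoxb8 and 157 ± 25.5 for Hoxb3. The places of Hoxb9 in synthesis and of Hoxb3 in decay thus rest on the time points used.

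**Figure D4:**
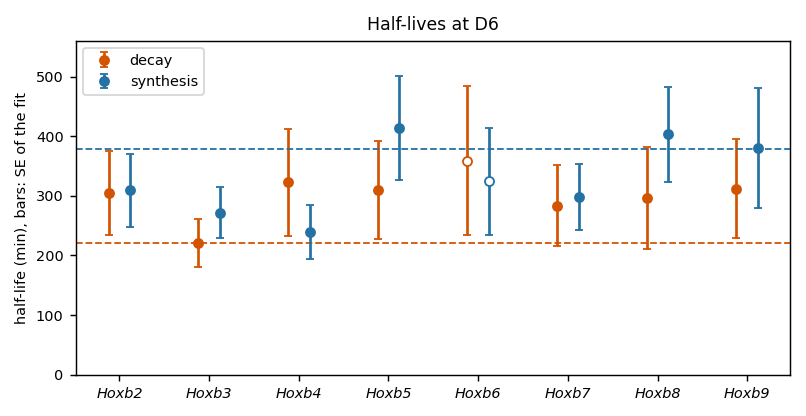
Decay (orange) and synthesis (blue) half-lives at D6 in minutes with the SE of the fit, by gene in cluster order, open symbols for fits with an R squared of 0.6 or less and dashed lines at the medians over all 3′ UTRs that passed. With all 4 time points Hoxb3 has the lowest decay point, 221 min (not with 0 and 9 h only, where Hoxb8 is lower), and Hoxb4 the lowest synthesis point, 239 min.

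The few reads at D0 were examined for their conversions, with the libraries that received no 4sU as the background. Over the 24 D0 libraries the 8 genes had 2386 reads, from 38 to 166 per library, against 706374 over the 23 D6 libraries. As a share of the D6 level this was 0.0951% for Hoxb6, 0.154% for Hoxb2, 0.156% for Hoxb3, 0.171% for Hoxb8, 0.175% for Hoxb4, 0.188% for Hoxb5, 0.225% for Hoxb7 and 0.326% for Hoxb9. Hoxb6, the lowest at D6, thus had the fewest D0 reads for its level and Hoxb9 the most.

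In the 3 D0 libraries that received no 4sU, the Hoxb reads nevertheless carried conversions. Their rate was 0.874%, 1.62% and 1.43%, a mean of 1.31% ± 0.388 (SD, n = 3), where all 3′ UTRs of the same libraries had 0.171% and the same genes in unlabeled D6 cells 0.0842%. Of 353 such reads, 62 had a conversion. The rate was 3.12% for Hoxb7, 2.38% for Hoxb3, 1.85% for Hoxb4, 1.83% for Hoxb5, 1.28% for Hoxb8 and 0.8% for Hoxb2, each from 375 to 983 covered T positions. Hoxb6 had 4 reads.

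Hoxb9 differed from the others. It had 84, 19 and 51 reads in these 3 libraries, 154 of the 353, and its rate was 0.232% over 3011 covered T positions. Without it the pooled rate of the other 7 genes was 1.91%. Leaving out Hoxb3 instead gave 1.10%.

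The rate of the D0 Hoxb reads did not follow the labeling of the D0 cells, as the plot of conversion rates in each library shows. In the anabolic assay it was 1.31% ± 0.388 at T0, 1.88% ± 0.438 at T1, 1.79% ± 0.428 at T3 and 1.19% ± 0.133 at T9 (SD, n = 3), while all 3′ UTRs went from 0.171% to 1.24%. In the catabolic assay it was 2.51% ± 0.957, 2.57% ± 0.565, 2.62% ± 0.434 and 2.91% ± 0.706, while all 3′ UTRs went from 1.42% to 0.415%. Pooled over time, the D0 reads had 1.499% in the anabolic assay and 2.64% in the catabolic assay, and the D6 reads of the same genes had 1.59% and 3.07%.

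**Figure D5:**
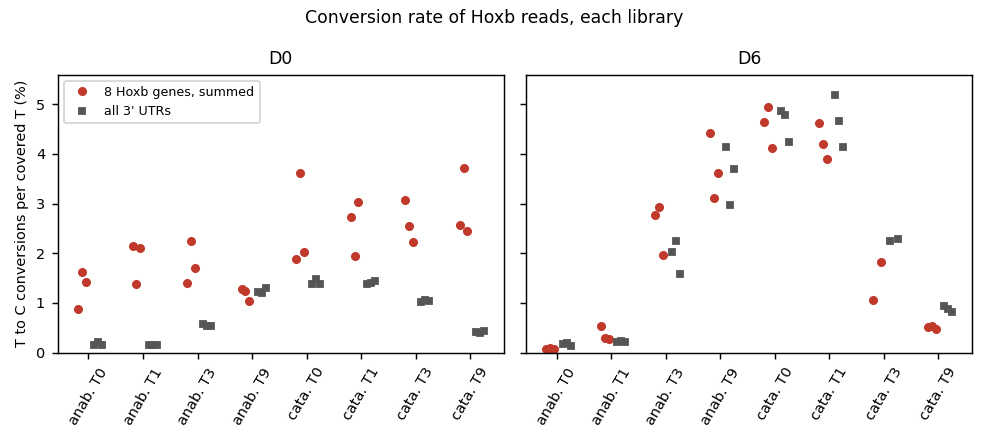
T-to-C conversions per covered T position (%) of the 8 Hoxb genes summed (red circles) and of all 3′ UTRs (grey squares) in each library, by assay and time point, with D0 at left and D6 at right. At D0 the red points stay between 0.874% and 3.73% at every time point, while the grey squares follow the labeling.

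The same was measured for other genes that are near absent at D0. Of 2160 genes with at least 100 CPM at D6, 38 had a D0 level under 1% of it, all 8 Hoxb genes among them. The other 30 had a rate of 0.428%, pooled over their covered T positions, in unlabeled D0 libraries, where 1440 genes at 50 to 200% of the D6 level had 0.162%. Single genes of the 30 ran from 0%, over 77 covered T positions in 1 such gene, to 4.88% over 123. The gene with the most, 14599, had 0.212% and so weighs heavily in the pooled rate. Hoxa5, at 0.159% of its D6 level, had 1.53%, and Hoxa3 0.794%. Of the 38, the 8 Hoxb genes take ranks 1, 3, 4, 6, 7, 8, 10 and 17 by the smallness of their D0 share. How converted reads came into D0 libraries without 4sU, carry-over from labeled D6 samples included, was not tested. The D0 levels of these genes, and the differences between D6 and D0 built on them, hold such reads, and no half-life is given for the 8 genes at D0.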

How the data were processed

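SLAM-seq libraries of P19 cells were analysed from the tables the authors deposited, 1 per library, made with SLAMdunk 0.3.3 on mm10 per the labels. For each RefSeq 3′ UTR they hold deposited counts of reads, covered T positions, conversions and reads with a conversion, CPM relative to mapped reads (deposited CPM) and the conversion rate (a deposited fraction). The kit has no molecular identifiers, and PCR copies were counted. Replicates are biological per the study's methods. CPM here was recomputed relative to reads on distinct 3′ UTRs. Identical 3′ UTRs were counted once (20737 in all), and named by RefSeq accession.

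The members and gene lists were chosen with earlier results of these data known. Reads were tested with edgeR 4.0.16 (TMM, filterByExpr, quasi-likelihood, Benjamini-Hochberg adjustment over all 3′ UTRs, threshold 0.05). Conversions were tested in the same way with the log of covered T positions and of the library-wide rate as offset, for 3′ UTRs averaging 1000 or more covered T positions per library. Half-lives came from least-squares fits (scipy) of exponential decay or approach to the mean 15 h rate, kept at an R squared above 0.6 and up to 5000 min. The tests were tried on simulated counts. Named genes were the 8 members, in each list the 2 genes with the largest called difference in each direction, and the 5 genes of highest correlation, and some genes that this rule names are not reported here. 3′ UTR sequences came from GENCODE transcripts (GRCm38) that cover at least 98% of the interval, found for 17041 3′ UTRs. For Hoxb8 the last 10 bases, for Hoxb2 the last 4 and for Hoxb5, Hoxb6 and Hoxb7 the last base were not covered. Alternatives were DESeq2 1.42.0, other filters and hours, and leaving out each library, with their effects in the closing section.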

Additional observations from a re-analysis of the deposited data

How the results depend on the processing

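No paired analysis was possible because the replicate numbers are library numbers that no 2 groups share. The number of calls over all 3′ UTRs moved with the setting. Between D6 and D0 it was 1357, 2106 with DESeq2, 2131 counting each transcript apart, and 793 to 1456 without 1 library. After 15 h of 4sU it was 1, 176 with DESeq2, 40 with no filter, 8 per transcript, and 0 to 3 without 1 library. After 9 h it was 0, 2 with DESeq2 and 3 with no filter. For the decay slope it was 64, 341 with DESeq2, 138 with the hours of the labels, 106 with 0 and 9 h only, 1843 with no library-wide rate in the offset, and 43 to 151 without 1 library. For label at 9 h over 15 h it was 0 and 28 with DESeq2. For T1 and T3, added after seeing the data, it was 7 and 5, 1975 and 115 with DESeq2, 1309 at T1 with reads with a conversion, where Hoxb2 and Hoxb3 were called, and 4 to 1935 (T1) and 1 to 85 (T3) without 1 library. The median decay half-life of members was 304 min, 181 with the hours of the labels and 188 with 0 and 9 h only. That of synthesis was 309, 174 and 221 min. Decay fits that passed numbered 7 of 8, and 4 to 8 without 1 library. Synthesis fits that passed numbered 7 of 8, and 6 to 8 without 1 library, where Hoxb9 passed in 9 of 15 fits. The D0 rate without 4sU, 1.31%, has as its counterpart 18.6% of reads with a conversion. The cause of these shifts was not tested. Hoxb6 had the fewest reads of the 8, down to 83 in a D6 library of the chase that held 4195196 reads on 3′ UTRs.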
